A study of Mus musculus with 6 samples.

Results

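The inflammasome is represented here by 10 of the 41549 genes in the count table, picked by symbol: the sensors Nlrp3, Nlrc4, Aim2, Mefv and Nlrp10, the sensor cofactor Nek7, the adaptor Pycard, the proteases Casp1 and Casp4, and the pore-forming substrate Gsdmd. All 10 had a row of their own, and all 10 passed the filter on low counts. The mRNA of mouse macrophages (Mφs), grown from wild type bone marrow with macrophage colony-stimulating factor, was sequenced in 6 libraries. The mice were young adults of the C57BL/6N strain. All cells were transfected with an antisense oligonucleotide and then received IL-4 and IL-13, which polarize Mφs to the M2 type, so both groups carry the transfection and the cytokines. The 3 αGlu libraries received an inhibitor of 5'tRF-Glu(CTC), which is a fragment from the front end of a glutamate tRNA, and the 3 Ctr libraries received a control inhibitor. By the study's statement on replication, each replicate of primary cells came from another animal, and whether a Ctr and an αGlu library share an animal is not stated for these libraries, although the study paired its qPCR comparison of the same treatments in such cells. The level of the fragment in these libraries was not analysed here.

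Inflammasomes are complexes that assemble in the cytosol when a sensor protein meets a sign of infection or damage. Most sensors recruit the adaptor ASC, the product of Pycard, which brings in caspase-1. The active protease matures IL-1β and IL-18 and cuts gasdermin D, whose fragments open pores in the plasma membrane. In macrophages the Nlrp3 route needs a priming step that raises the transcripts of the sensor and of pro-IL-1β, followed by a separate activating signal. Transcript levels measure neither the proteins nor assembled complexes.

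The sequences that define the treatment are shown because every comparison rests on them. Capitals in the target mark the 20 bases, from position 2 to position 21, that are complementary to the oligonucleotide. Both are written 5' to 3' as the study lists them.
αGlu oligonucleotide: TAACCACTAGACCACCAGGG
Target on the fragment: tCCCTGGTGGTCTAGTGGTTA

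The libraries held between 17912831 and 30386653 counts. The 6 were counted as separate samples, since even the closest pair had a chi-square of 19.8 per gene. αGlu 1 stood apart from its group: on the first principal component, which held 76.7% of the variance, it lay at -22.2, beside -50.5 to -35.8 for Ctr and 74.4 and 74.7 for αGlu 2 and 3. The fold changes of the components are therefore given with and without αGlu 1. This library was singled out from the same values, as the αGlu library nearest to Ctr. Leaving it out widens the difference between groups, so p-values and counts without it are descriptions, not independent evidence. The 8 macrophage markers, such as Csf1r and Adgre1, were above 1 CPM (reads scaled to a fixed library total, with TMM factors) in every library, and their summed level was 12072 to 13594 CPM in Ctr and 12858 to 19241 CPM in αGlu. The largest part of this sum was Lyz2. In αGlu 2 and 3, Cd68 was at 1237 and 1144.5 CPM beside 1809 to 2063 CPM in Ctr, and Mertk was also below every Ctr library. The other macrophage markers were above every Ctr library there. Of the 8 markers of M2 polarization, 4 were above 1 CPM in every library, and the summed level of the 8 was 2721 to 4420 CPM in Ctr and 4000.5, 6941 and 6356.5 CPM in αGlu 1, 2 and 3. The markers differed in direction. Arg1 was highest in αGlu 2 and 3, with 1886 and 1792 CPM beside 24.3 to 45.2 CPM in Ctr, as were Mrc1, with 1512.5 and 2379 CPM beside 771 to 948 CPM, and Ccl24, with 9.07 and 16.2 CPM beside 0.251 to 0.636 CPM. Ccl17 stayed below 1 CPM throughout, and Retnla ranged from 245 to 540 CPM in the Ctr libraries, compared with 0.0315 and 0.0367 CPM for αGlu 2 and 3, with αGlu 1 in between. These bulk values cannot tell fewer cells of a type from less RNA per cell.

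With all 6 libraries, 0 of the 10 components were called by edgeR's quasi-likelihood test when a call needed a Benjamini-Hochberg adjusted p under 0.1 together with a log2 fold change beyond 1 in either direction. The background was the same, at 0% of the 11933 genes tested. At an unadjusted p under 0.05 there were 4 components, Nlrp3, Mefv, Casp4 and Pycard, beside 24.7% of all genes. DESeq2 called Nlrp3, Mefv and Casp4 higher in αGlu, where 4.21% of 13742 genes were called higher, and it called 0 components lower, where 3.92% of genes were. An edgeR likelihood-ratio test called the same 3 components, with 3.87% of genes called higher and 3.66% lower. The quasi-likelihood test at a looser adjusted p of 0.2 also passed these 3, beside 8.32% of genes. Without αGlu 1, the quasi-likelihood test called 3 components higher, again Nlrp3, Mefv and Casp4, against a background of 8.05% of 12340 genes. It called 1 lower, Nlrp10, against 10.5%. At that setting 8 of the 10 passed the adjusted p at any fold, while 49.1% of all genes did.

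**Figure D1:**
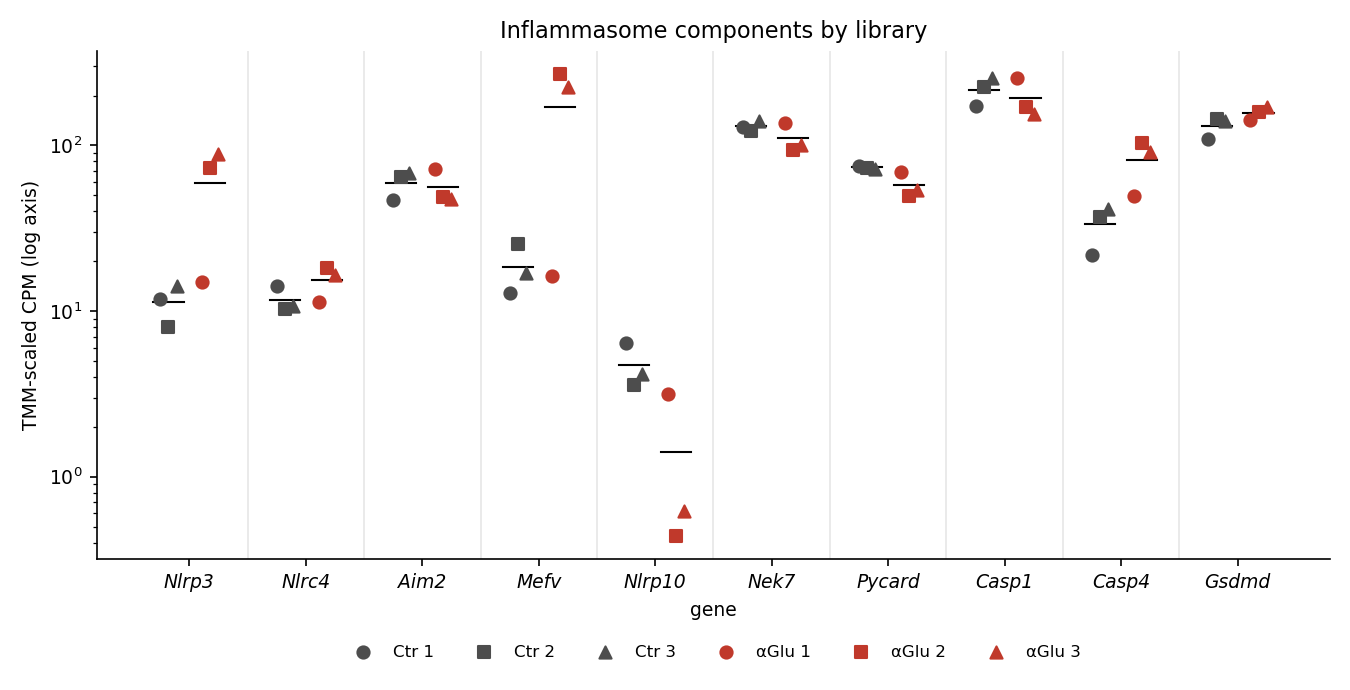
TMM-scaled CPM of each component on a log axis. Gray symbols are Ctr and red symbols αGlu, circles, squares and triangles are libraries 1, 2 and 3, and bars are group means (n = 3). Nlrp3, Mefv and Casp4 were highest in αGlu 2 and 3, Nlrp10 was lowest there, and αGlu 1 lay at or near the Ctr libraries.

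Nlrp3 encodes the sensor that answers to potassium efflux and many other signs of cell damage. It lies at chr11:59541568-59566956 on the plus strand (GRCm38, GENCODE M21 annotation). Its level was 11.9, 7.98 and 14.2 CPM in Ctr 1, 2 and 3, and 14.97, 73.4 and 88.3 CPM in αGlu 1, 2 and 3. The groups did not overlap, but αGlu 1 was only slightly above the highest Ctr library. This gave a log2 fold change of 2.38 ± 0.65 (SE, n = 3, edgeR adjusted p = 0.157). Without αGlu 1 it was 2.83 ± 0.22, with an edgeR adjusted p of 0.000261. For edgeR, the SE here is the absolute log2 fold change divided by the square root of the test's F statistic, not a fitted error.

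Mefv encodes pyrin, the sensor that is mutated in familial Mediterranean fever. The gene is at chr16:3707218-3718097 on the minus strand. Ctr libraries held 12.8, 25.4 and 16.98 CPM, and αGlu libraries held 16.3, 270.3 and 223.9 CPM. αGlu 1 lay inside the Ctr range, so the groups overlapped, while αGlu 2 and 3 were far above every other library. Mefv had the largest absolute fold change of the components, with a log2 value of 3.21 ± 0.97 (edgeR adjusted p = 0.16), and only 129 of the 11933 genes exceeded it. Leaving out αGlu 1 gave 3.74 ± 0.28 (edgeR adjusted p = 0.000209).

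Nlrp10 encodes an NLR protein without the leucine-rich repeats of its relatives. Its locus is chr7:108921852-108930178, minus strand. It was the least abundant component, with 142, 85 and 90 reads in Ctr and 55, 14 and 17 reads in αGlu. As CPM, these were 6.45, 3.55 and 4.18 in Ctr and 3.15, 0.441 and 0.624 in αGlu. All αGlu libraries were below all Ctr libraries, and αGlu 1 was again nearest to them. The log2 fold change was -1.81 ± 0.77 (edgeR adjusted p = 0.212). Without αGlu 1 it was -3.15 ± 0.39 (edgeR adjusted p = 0.00138), which corresponds to 0.112 of the Ctr level.

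The remaining sensors differed less. Aim2, the receptor for double-stranded DNA in the cytosol (chr1:173350879-173466040, plus strand), was at 46.8, 64.4 and 67.7 CPM in Ctr and 71.6, 48.9 and 47.3 CPM in αGlu. αGlu 1 was above every Ctr library, and αGlu 2 and 3 were inside the Ctr range. The log2 fold change was -0.09 ± 0.22 (edgeR adjusted p = 0.794), and its sign turned when Ctr 3 or αGlu 3 was left out. Nlrc4, the sensor that pairs with NAIP proteins to detect flagellin and secretion needles (chr17:74425438-74459142, minus strand), was at 14.1, 10.2 and 10.8 CPM in Ctr and 11.3, 18.3 and 16.4 CPM in αGlu. αGlu 1 was inside the Ctr range and the other two αGlu libraries above it, with a log2 fold change of 0.39 ± 0.22 (edgeR adjusted p = 0.294). Without αGlu 1 Nlrc4 was 1.48-fold higher (edgeR adjusted p = 0.0293), short of the fold limit. Aim2 still missed the adjusted p there, at 0.166.

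To compare sensors with each other, the deposited TPM values were used, since they account for transcript length. The TPM of the 5 sensors summed to 75.6, 92.7 and 93.4 in Ctr and to 99.9, 381.4 and 354.0 in αGlu. Aim2 made up 54.3% to 61.9% of this sum in Ctr and 63.5% in αGlu 1, and was the leading sensor in these 4 libraries. In αGlu 2 and 3 its share was 11.7% and 12.5%. Mefv led there, with 69.8% and 63.9%, compared with 16% to 25.1% in Ctr and 15.6% in αGlu 1. Nlrp3 took 6.33% to 11.9% in Ctr, and 11.5%, 15.2% and 20.2% in αGlu 1, 2 and 3. As shares of 1 total these values are not independent of each other, and the level of Aim2 itself in αGlu 2 and 3, 44.7 and 44.4 TPM, was inside the Ctr range of 41.1 to 57.8 TPM.

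**Figure D2:**
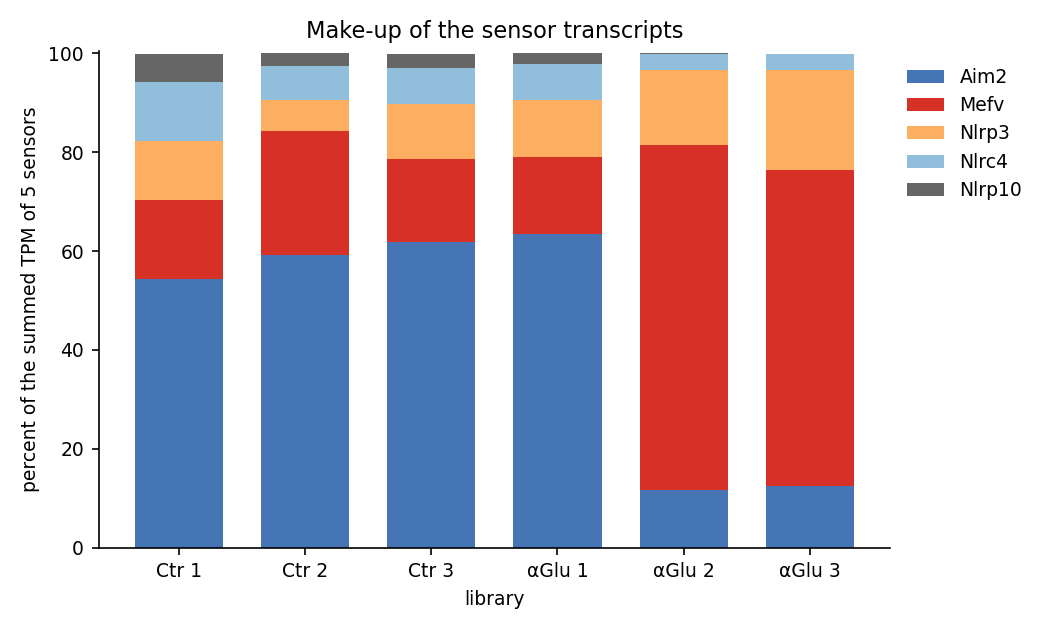
Share of each sensor, in percent, of the summed TPM of the 5 sensors, by library. Aim2 took the largest share in Ctr and in αGlu 1 (54.3% to 63.5%), and Mefv in αGlu 2 and 3 (69.8% and 63.9%).

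Nek7 encodes a kinase that binds NLRP3 and is needed for its assembly. It is at chr1:138482875-138620141 on the minus strand, and the annotated gene that shares 118 exon bases with it, Gm28501, had 0 reads. Its level was 129.2, 121.8 and 139.7 CPM in Ctr and 137.0, 94.1 and 100.1 CPM in αGlu. αGlu 1 was inside the Ctr range and the other two αGlu libraries below it. The log2 fold change was -0.24 ± 0.16 (edgeR adjusted p = 0.365), and -0.43 ± 0.09 without αGlu 1 (edgeR adjusted p = 0.0123).

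Pycard, the adaptor gene, was the steadiest component in Ctr. Its locus is chr7:127989708-127993867, minus strand, and Gm45205, which shares 485 exon bases with it, had 0 reads. Pycard measured 75.4, 73.5 and 72.3 CPM in Ctr, and 68.9, 49.5 and 54.0 CPM in αGlu. All αGlu libraries were below all Ctr libraries. As a log2 fold change this was -0.36 ± 0.13 (edgeR adjusted p = 0.181). Without αGlu 1, Pycard was at 0.699 of the Ctr level (edgeR adjusted p = 0.00276), which is a smaller change than the fold limit asks for.

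Casp1 and Casp4 are neighbours on the plus strand of chromosome 9. Casp1, at chr9:5298517-5307265, encodes the protease of the canonical inflammasomes. Its Ctr values were 171.9, 224.4 and 253.4 CPM and its αGlu values 255.0, 169.4 and 154.9 CPM. The αGlu libraries lay on both sides of Ctr, with αGlu 1 just above every Ctr library and αGlu 2 and 3 below. The log2 fold change was -0.17 ± 0.24 (edgeR adjusted p = 0.671), or -0.42 ± 0.17 without αGlu 1 (edgeR adjusted p = 0.0931).

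Casp4, at chr9:5308828-5336783, encodes the mouse protease also called caspase-11, which binds lipopolysaccharide in the cytosol and starts the non-canonical route. Its values were 21.8, 37.0 and 41.5 CPM in Ctr and 49.7, 102.7 and 91.4 CPM in αGlu. All αGlu libraries were above all Ctr libraries, and αGlu 1 was nearest to them. The log2 fold change was 1.28 ± 0.35 (edgeR adjusted p = 0.157). It was 1.53 ± 0.25 without αGlu 1 (edgeR adjusted p = 0.00426).

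Gsdmd, at chr15:75862327-75867408 on the plus strand, encodes gasdermin D, which both proteases cut. Ctr libraries had 108.6, 144.2 and 140.4 CPM, compared with 141.8, 158.8 and 170.3 CPM for αGlu. Only αGlu 1 was inside the Ctr range. The log2 fold change of 0.26 ± 0.14 had an edgeR adjusted p of 0.284, and without αGlu 1 the value was 0.32 ± 0.14 (edgeR adjusted p = 0.108).

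**Figure D3:**
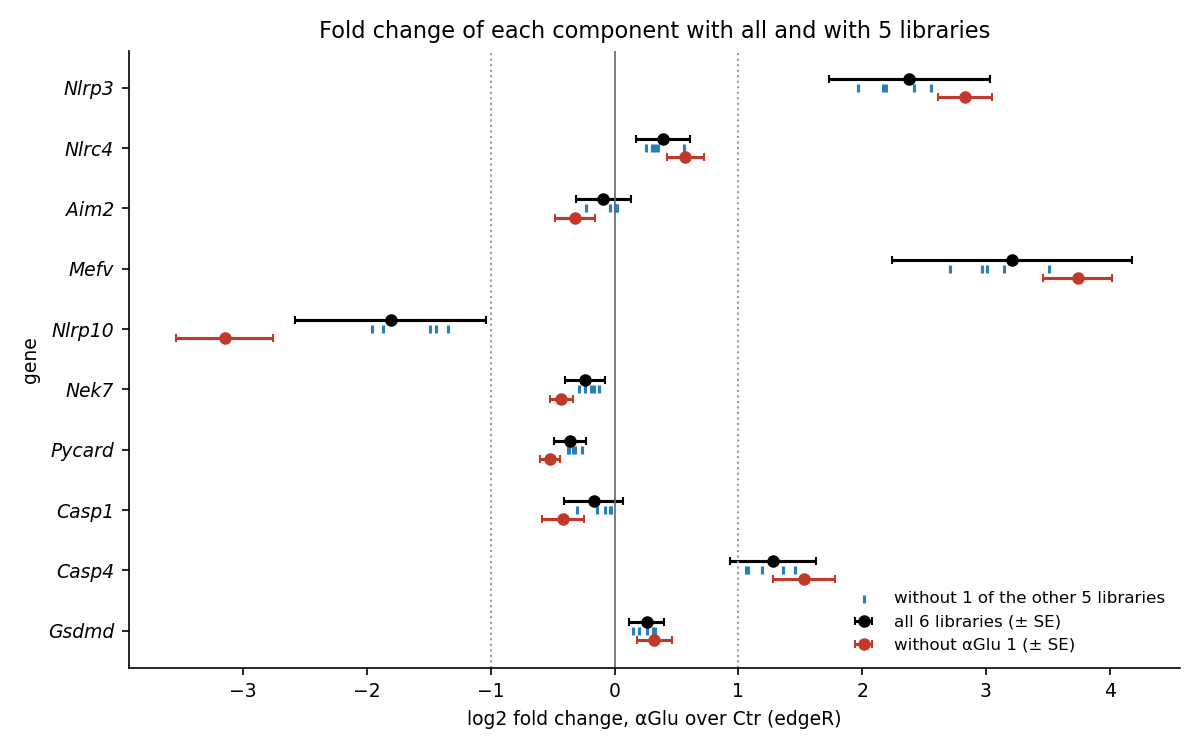
Log2 fold change (αGlu over Ctr) of each component, with all 6 libraries (black, ± SE), without αGlu 1 (red, ± SE) and without each of the other 5 libraries (blue ticks). Dotted lines mark the fold limit of 1. The value farthest from 0 was the one without αGlu 1 for Nlrp3, Mefv, Nlrp10, Nek7, Pycard, Casp1, Casp4, Aim2 and Nlrc4.

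Counted over the components, αGlu and Ctr did not overlap for 4 of 10, beside 30.2% of all genes tested. Of these, 2 were higher in αGlu (Nlrp3 and Casp4, background 14.2%) and 2 were lower (Nlrp10 and Pycard, background 15.9%). Without αGlu 1 the groups did not overlap for 9 of 10, all but Aim2, beside 66.1% of genes. αGlu 1 lay inside the Ctr range for 4 of 10 components and for 42.6% of all genes. The median log2 fold change was 0.08 for the components and 0.02 for all genes, with 5 components on each side of 0. In absolute size the median was 0.38 for the components and 0.24 for all genes, and without αGlu 1 it was 0.54 and 0.33.

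Ctr 1 had the lowest level of all libraries for 4 components, Aim2, Mefv, Casp4 and Gsdmd, as it did for 21.5% of all genes. Gbp2 and Zbp1, which interferons induce, were low in the same library. Gbp2 measured 103 CPM in Ctr 1, compared with 253 and 284 CPM in Ctr 2 and 3, and Zbp1 was at 29.8 CPM beside 139 and 141 CPM. These 2 genes were chosen after their values were seen and do not stand for all genes of that kind. The part of this difference between Ctr libraries in the fold changes was not tested. Leaving out Ctr 1 moved the log2 fold change of Casp4 to 1.06 and that of Gsdmd to 0.15.

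On the TPM scale the components spanned a wide range of levels. In Ctr the order was Casp1 (207.9 ± 36.8 TPM, SD, n = 3), Gsdmd (166 ± 22.1), Pycard (58.5 ± 2.23), Nek7 (53.3 ± 3.75), Aim2 (51.2 ± 8.92), Casp4 (27.1 ± 8.01), Mefv (17 ± 5.73), Nlrp3 (8.46 ± 2.37), Nlrc4 (7.35 ± 1.45) and Nlrp10 (3.18 ± 1.09). The ranges of 4 neighbouring pairs overlapped, namely Casp1 and Gsdmd, Nek7 and Aim2, Casp4 and Mefv, and Nlrp3 and Nlrc4. Casp1 and Gsdmd were each above every sensor in every Ctr library. In αGlu the highest mean was that of Gsdmd (211.5 ± 25.3 TPM), followed by Casp1 (195.9 ± 49.1), Mefv (169.4 ± 134.7) and Casp4 (70.4 ± 25.3), and only Nlrc4 and Nlrp10 at the low end were neighbours without overlap. In αGlu 2 Mefv, at 266.3 TPM, was the most abundant component.

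The balance between partners was compared within libraries, as the log2 ratio of RPKM with 0.1 added, for 5 pairs. An exact two-sided permutation test of 3 against 3 libraries cannot give a p below 0.1. The ratios printed by library, for all 5 pairs, are plain RPKM ratios with nothing added. Only the log2 differences and tests use the added 0.1. Nlrp3 over Nek7 was 0.168, 0.119 and 0.185 in Ctr and 0.199, 1.42 and 1.60 in αGlu. By RPKM, Nlrp3 was the less abundant transcript of the pair in Ctr and in αGlu 1 and the more abundant one in αGlu 2 and 3. The log2 difference was 2.27 (exact permutation p = 0.1, adjusted over the 5 pairs 0.167).

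Nlrp3 over Pycard was 0.148, 0.102 and 0.184 in Ctr and 0.203, 1.39 and 1.53 in αGlu, with a log2 difference of 2.39 (exact permutation p = 0.1, adjusted 0.167). Casp4 over Casp1 was 0.107, 0.139 and 0.139 in Ctr and 0.165, 0.512 and 0.499 in αGlu, with a log2 difference of 1.44 (exact permutation p = 0.1, adjusted 0.167). For these 3 pairs the groups did not overlap. The pairs were chosen with earlier results of these data known, and their ratios restate the levels of the single genes. They are not separate evidence, and the share of other gene pairs without overlap was not computed. Casp1 over Pycard was 2.76 to 4.25 in Ctr and 3.48 to 4.48 in αGlu, a log2 difference of 0.19 (exact permutation p = 0.6). Gsdmd over Casp1 was 0.731 to 0.848 in Ctr and 0.734, 1.24 and 1.45 in αGlu, a log2 difference of 0.45 (exact permutation p = 0.3). Without αGlu 1 the log2 differences were 3.23 for Nlrp3 over Nek7, 3.32 for Nlrp3 over Pycard, 1.98 for Casp4 over Casp1, 0.11 for Casp1 over Pycard and 0.74 for Gsdmd over Casp1. Casp1 over Pycard differed by 0.02 without Ctr 1.

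**Figure D4:**
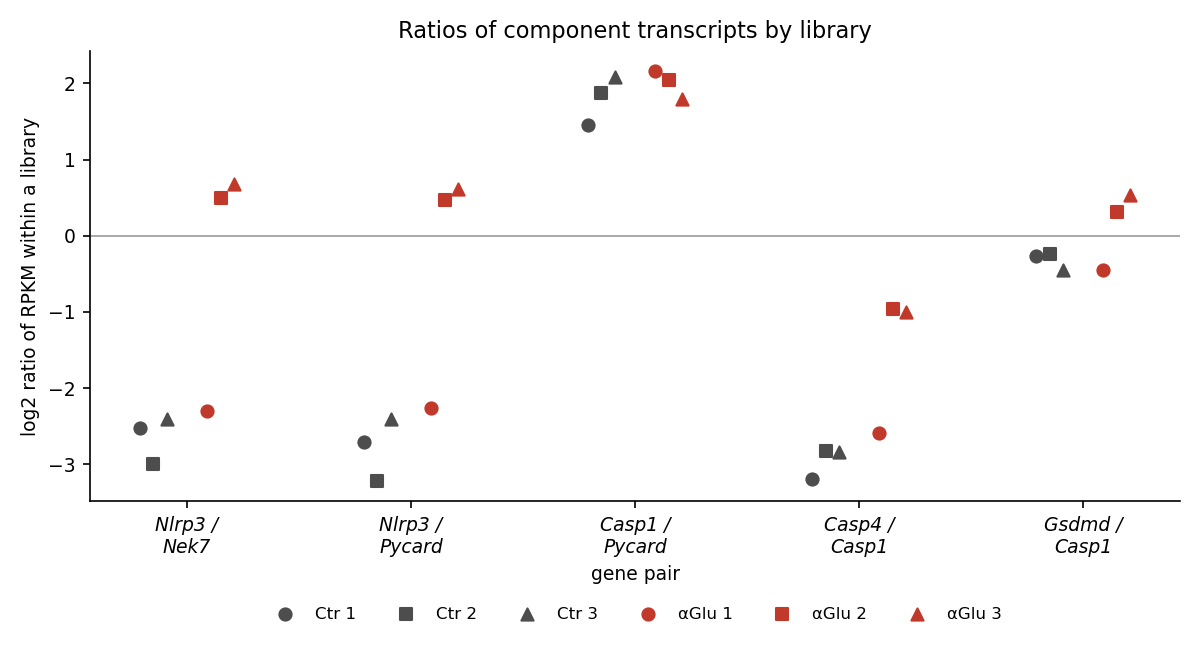
Log2 ratio of RPKM (with 0.1 added) for 5 pairs of components within each library. Gray symbols are Ctr and red symbols αGlu, with circles, squares and triangles for libraries 1, 2 and 3. Nlrp3 over Nek7 and over Pycard was above 0 in αGlu 2 and 3 and between -3.22 and -2.26 in the other 4 libraries, while Casp1 over Pycard was 1.46 to 2.16 in all.

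Windows before a transcription start are shown for Nlrp3, Mefv and Casp4, which were highest in αGlu 2 and 3, and for Aim2, which was not. They are RefSeq windows on GRCm38.p6, printed 5' to 3' on the strand of the gene, and bases in an annotated GENCODE exon were left out. Capitals mark matches to the motifs searched, on either strand: GGGANNTTC for NF-kB, GAAANNGAA for the interferon-stimulated response element, TTCNNNGAA for the STAT site GAS, TGANTCA for AP-1 and GAGGAA for PU.1. None of the printed matches overlap. RefSeq gives 2 starts for Nlrp3. The window printed belongs to the later one and lies inside the gene, and the window before the earlier one, chr11:59541319-59541568, held 0 matches to the motifs.
Nlrp3, chr11:59542436-59542685: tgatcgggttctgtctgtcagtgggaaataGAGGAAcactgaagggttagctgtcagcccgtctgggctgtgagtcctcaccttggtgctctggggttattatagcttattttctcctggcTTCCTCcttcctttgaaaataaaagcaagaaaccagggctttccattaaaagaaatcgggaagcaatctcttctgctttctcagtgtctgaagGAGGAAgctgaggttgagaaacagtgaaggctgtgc
Mefv, chr16:3718125-3718374: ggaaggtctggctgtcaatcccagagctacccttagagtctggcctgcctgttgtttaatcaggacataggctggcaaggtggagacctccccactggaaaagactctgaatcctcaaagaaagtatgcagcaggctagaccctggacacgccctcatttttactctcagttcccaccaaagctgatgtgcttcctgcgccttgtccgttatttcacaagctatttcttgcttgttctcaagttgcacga
Casp4, chr9:5308599-5308827: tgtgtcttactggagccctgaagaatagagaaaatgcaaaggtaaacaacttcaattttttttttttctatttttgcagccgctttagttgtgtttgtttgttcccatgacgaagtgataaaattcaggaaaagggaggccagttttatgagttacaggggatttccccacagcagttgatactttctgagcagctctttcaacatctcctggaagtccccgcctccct
Aim2, chr1:173420354-173420570: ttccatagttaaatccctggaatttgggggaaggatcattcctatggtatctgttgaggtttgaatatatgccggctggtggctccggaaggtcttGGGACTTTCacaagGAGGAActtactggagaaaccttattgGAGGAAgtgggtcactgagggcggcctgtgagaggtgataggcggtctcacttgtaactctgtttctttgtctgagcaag

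RefSeq entries were found for 8 components, with 10 windows of 250 bases. The PU.1 letters occurred in 4 of these 10, those of Aim2, Pycard, Casp1 and the later Nlrp3 start, and in 23.3% of 32851 windows of all genes. The NF-kB letters occurred in 1, that of Aim2, beginning 154 bases before the start, and in 3.23% of all windows. Only this spelling was searched, so a window without a match may hold another form of the site. The Casp4 windows hold gggatttccc, which the pattern does not match. The letters of the interferon element, GAS and AP-1 occurred in 0 of the 10 windows, and in 7.13%, 7.02% and 6.75% of all windows. A match is a description of the letters only. Nlrp10 and Gsdmd had no entry.

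The other genes of the pathway were taken from 4 lists of 51 genes, of which 48 were in the table and 43 were tested. With all libraries 0 of the 43 were called. Without αGlu 1, 8 were called higher and 2 lower among 44 tested, against the backgrounds of 8.05% and 10.5% given above. Of the 8, 1 was Il1r2, which passed the low-count filter only through αGlu 2 and 3, where it was high. With all libraries, αGlu and Ctr did not overlap for 8 of the 43 with αGlu higher, beside 14.2% of all genes, and for 4 with αGlu lower, beside 15.9% of all genes.

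Among 8 cytokine substrates and further effectors, 0 were called with all libraries. Without αGlu 1, 3 were called higher and 0 lower, beside 8.05% and 10.5% of all genes. The median log2 fold change was 0.47. Il1b, the main cytokine substrate of caspase-1, had 10, 7 and 6 reads in Ctr and 1, 10227 and 9405 reads in αGlu. The single read in αGlu 1 was below the 3 counts taken as the limit of detection, so the αGlu libraries lay on both sides of Ctr. Its log2 fold change was 9.33 ± 2.43 with all libraries (edgeR adjusted p = 0.156) and 9.91 ± 0.16 without αGlu 1 (edgeR adjusted p = 2.22e-06). With 6 to 10 reads in each Ctr library, the size of this fold change is less certain than the SE of 0.16 conveys. Il1a, which encodes the IL-1 cytokine that needs no caspase-1 cut, was at 5.27, 6.81 and 7.10 CPM in Ctr and 6.14, 79.8 and 55.0 CPM in αGlu. It had a log2 fold change of 2.88 ± 0.85 (edgeR adjusted p = 0.16), and of 3.39 ± 0.20 without αGlu 1 (edgeR adjusted p = 7.79e-05).

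Il18, the other substrate of caspase-1, was at 2.32, 3.34 and 5.24 CPM in Ctr and 5.28, 5.35 and 4.80 CPM in αGlu. Its log2 fold change of 0.50 ± 0.31 was not called (edgeR adjusted p = 0.327), nor was it without αGlu 1 (0.292). Gsdme, a gasdermin opened by caspase-3, was at 9.40, 10.2 and 11.4 CPM in Ctr and 12.5, 22.7 and 22 CPM in αGlu, without overlap. Its log2 fold change was 0.89 ± 0.24 (edgeR adjusted p = 0.157), and 1.11 ± 0.11 without αGlu 1 (edgeR adjusted p = 0.000542).

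Of 16 tested activators and licensing factors, 0 were called with all libraries. Without αGlu 1, 1 was called higher and 0 lower, beside 8.05% and 10.5% of all genes. The median log2 fold change was 0.21. Gbp5, an interferon-induced GTPase that promotes inflammasome assembly, was at 5.54, 18.1 and 22.5 CPM in Ctr and 44.6, 80.2 and 62.1 CPM in αGlu. Here αGlu 1 was also well above Ctr, and the log2 fold change was 2.02 ± 0.52 (edgeR adjusted p = 0.156). Without αGlu 1 it was 2.20 ± 0.48 (edgeR adjusted p = 0.0132). Mavs, the mitochondrial adaptor of RNA sensing, was at 53.8 to 58.7 CPM in Ctr and 51.4, 42.1 and 42.9 CPM in αGlu, with a log2 fold change of -0.30 ± 0.10 (edgeR adjusted p = 0.171). Without αGlu 1 it was -0.40 ± 0.07 (edgeR adjusted p = 0.00659), short of the fold limit.

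Of 12 tested inhibitors and decoys, 0 were called with all libraries. Without αGlu 1, 13 were tested, 4 were called higher and 2 lower, beside 8.05% and 10.5% of all genes. The added gene was Il1r2, with 1 read in each Ctr library and 0, 14 and 13 reads in αGlu 1, 2 and 3. It passed the low-count filter only through αGlu 2 and 3, where it was high. Its call, 1 of the 4, is therefore no support. The median log2 fold change was 0.02. Il1rn, the antagonist that occupies the IL-1 receptor, was at 11.7, 32.4 and 24.5 CPM in Ctr and 21.4, 399 and 292 CPM in αGlu. αGlu 1 was inside the Ctr range, and the log2 fold change was 3.38 ± 1.04 (edgeR adjusted p = 0.16) with all libraries and 3.91 ± 0.40 without αGlu 1 (edgeR adjusted p = 0.000706). Serpinb1b, of the serpin family whose relatives restrain inflammatory caspases, was low throughout, at 30, 48 and 32 reads in Ctr and 10, 7 and 15 reads in αGlu. Its log2 fold change was -1.88 ± 0.42 (edgeR adjusted p = 0.156), and -2.09 ± 0.46 without αGlu 1 (edgeR adjusted p = 0.0141).

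Of 7 tested further sensors, 0 were called with or without αGlu 1. Without it, 8.05% of all genes were called higher and 10.5% lower. With all libraries, the groups did not overlap for 0 of the 7, beside 30.2% of all genes tested. The median log2 fold change was 0.10. The smallest p belonged to Nlrp1a, at 7.56 to 9.49 CPM in Ctr and 6.48 to 8.11 CPM in αGlu, and to Naip1, at 0.371 to 1.36 CPM in Ctr and 0.807 to 1.84 CPM in αGlu. Their log2 fold changes were -0.23 ± 0.15 and 0.82 ± 0.55, and -0.25 ± 0.16 and 0.65 ± 0.58 without αGlu 1. The Nlrp1, Naip, Gbp and Serpinb1 genes have close copies, and how the authors' counting divided reads between copies is not given in the sources used here and their values are uncertain.

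**Figure D5:**
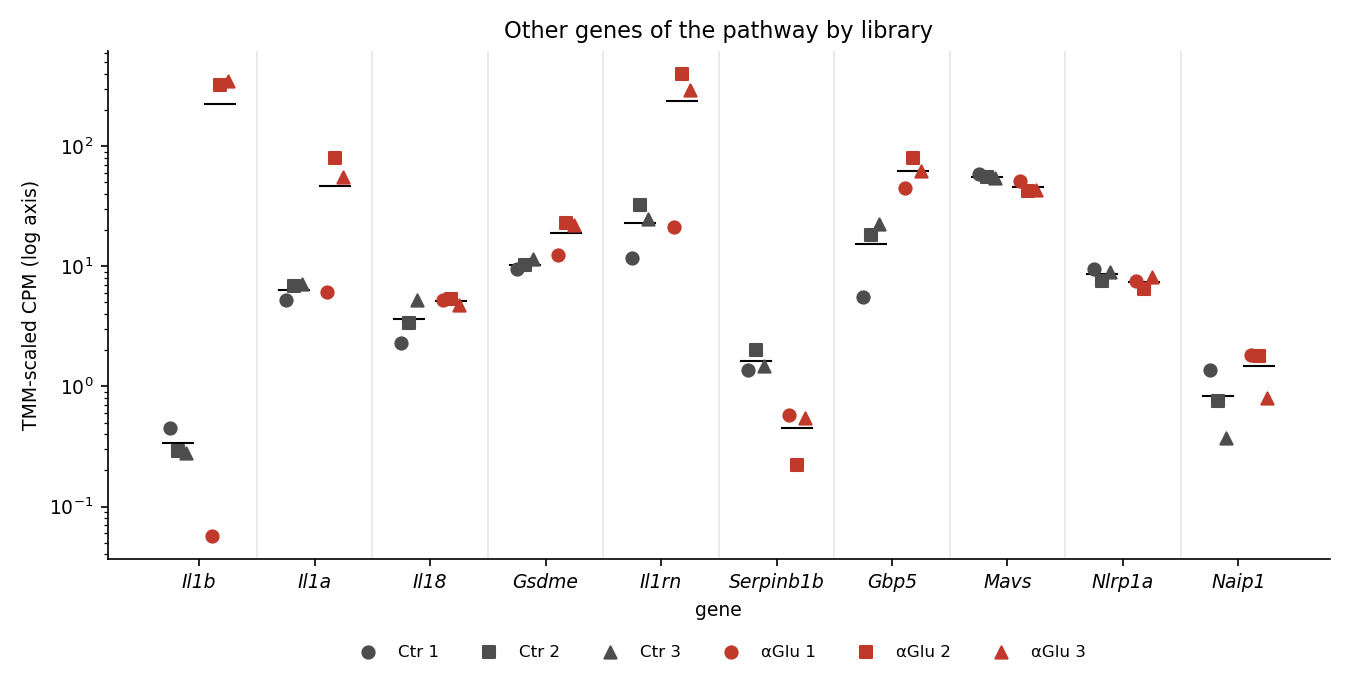
TMM-scaled CPM on a log axis of 10 other genes of the pathway, with gray symbols for Ctr, red symbols for αGlu, circles, squares and triangles for libraries 1, 2 and 3, and bars for group means (n = 3). Il1b and Il1rn were at 322 and 399 CPM in αGlu 2 and at 0.0574 and 21.4 CPM in αGlu 1, while Gbp5 was above every Ctr library in all 3 αGlu libraries.

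Across the 6 libraries, the genes with the pattern most like each component were sought among 8405 abundant genes, by Pearson's r of log2 CPM. Each r includes the split between αGlu 2 and 3 and the other libraries, and is given as a description. The closest were Rspry1 (r = 0.999) and Mrpl51 (0.997) for Nlrp3, Itprip and Tor1b (both 1.0) for Mefv, Kctd6 (0.999) and Mettl3 (0.997) for Casp4, and Dcaf6 (0.998) and Rab8a (0.990) for Gsdmd. For Nlrp10 they were Sesn1 and Grk5 (both 0.999), for Pycard Stab2 and Ero1lb (both 0.999), and for Nek7 Fam111a (0.997) and Scamp2 (0.993). For Casp1 they were Hyi (0.998) and Ppp2r5c (0.992), for Aim2 Coa5 (0.994) and Tent5a (0.992), and for Nlrc4 Zdhhc24 (0.999) and Zkscan17 (0.994). Likeness in r is not likeness in size: the log2 fold change was 2.38 for Nlrp3 and 0.26 for Rspry1.

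Markers of other cells were read for the same libraries. Of 12 neutrophil markers, Ly6g and Retnlg were at 0 in every library, and the summed level of 129 to 211 CPM in Ctr and 241 to 636 CPM in αGlu was mostly Csf3r, at 103 to 158 CPM in Ctr and 183, 536 and 607 CPM in αGlu. The others differed in direction. Mpo, Ngp, Ltf, Cxcr2 and S100a9 were lower in αGlu 2 and 3 than in every Ctr library, while S100a8 and Camp were higher. All of these were at most 2.59 CPM in every library. Apart from S100a8, they were at or near the limit of detection of 3 counts in αGlu 2 and 3, so these directions rest on few reads. Camp, for example, was at 0 in every Ctr library and at 0.0944 and 0.0367 CPM in αGlu 2 and 3. Mmp8 and Elane lay inside the Ctr range there. Summed levels were at most 2.34 CPM for 6 dendritic cell markers, 0.172 CPM for 6 lymphocyte markers, 0.746 CPM for 6 keratinocyte markers, 7.18 CPM for 5 fibroblast markers and 4.13 CPM for 5 mast cell and basophil markers. In the same libraries Mefv reached 270.3 CPM and Nlrp3 88.3 CPM. A sum of markers does not measure the share of a cell type and cannot be set against the level of a single gene. The part of other cells in the fold changes was not tested.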

How the data were processed

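Stranded mRNA libraries of 3 Ctr and 3 αGlu cultures were sequenced by the study on an Illumina instrument and its reads went through the RNA-seq Analysis Portal of QIAGEN. The submitters' processing notes name GRCm38; the aligner and annotation are not given in the sources used here. The deposited counts are whole reads per gene. The deposited RPKM and TPM values are these reads scaled by the authors for length and depth. The deposited CPM was not used, and CPM here are counts over TMM-adjusted library sizes. Genes were filtered with filterByExpr (minimum count 10, minimum total count 15) and tested two-sided with the quasi-likelihood model of edgeR 4.0.16 in R 4.3.3 on all 6 libraries. DESeq2 1.42.0, limma-voom 3.58.1, other scalings, filters and thresholds, a replicate block and each library left out were alternatives. The code was tested on simulated data. With 3 libraries a group, the edgeR p-values set the group difference against the spread between these cultures, moderated across genes.

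The components, lists, motifs and tests were chosen with earlier results of these data known. Named were all components, the 2 genes of each list with the smallest p, Il1b, Il18, Il1a and Il1rn, and per component the 2 genes with the highest r among tested genes whose mean log2 CPM (prior count 2) reached 3, gene models aside.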

Additional observations from a re-analysis of the deposited data

How the results depend on the processing

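Of 150 values for the fold changes of single components under alternatives, 148 kept their direction. With 1 library left out Aim2 ranged from -0.32 to 0.02, and was above 0 without Ctr 3 (0.01) and without αGlu 3. All 45 differences of ratios kept theirs. The number of components called was 0 with all libraries, 3 by DESeq2, 3 by the likelihood-ratio test and 3 at an adjusted p under 0.2, where 8.32% of genes passed. Over all genes these settings called 1117, 899 and 993, beside 0. With 1 library left out, components called ranged from 0 to 4 and genes called from 0 to 2290, and both high values came without αGlu 1. The number of components without overlap ranged from 4 to 9, again highest without αGlu 1. The median log2 fold change of the components ranged from -0.04, without Ctr 1, to 0.16 with 1 library left out, and was 0.17 with library size alone.

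With the replicate number as a block, 17 genes (0.142%) and 0 components were called. Casp4 had an edgeR adjusted p of 0.1 after rounding in this paired fit, not below the limit, and Nlrp10 one of 0.16. Libraries with the same number departed from the group means together at r = 0.076, 0.065 and 0.154. Those with unlike numbers had r from -0.112 to 0.046, so each library was most like the one with its own number. These small values cannot tell whether the numbers mark pairs, and the main fit used no block. For the ratios, exact sign flips over 3 pairs gave p = 0.25 for Nlrp3 over Nek7, Nlrp3 over Pycard and Casp4 over Casp1, the smallest that test allows. Limma-voom, other scalings, other filters and an adjusted p under 0.05 called 0 components. Nlrp10 rests on 14 to 142 reads a library.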
